A study of Mus musculus with 12 samples.

Results

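Cytochrome P450 enzymes of the Cyp4 family put a hydroxyl group on the last, or omega, carbon of fatty acids and eicosanoids. In liver this is the first step by which long chains become dicarboxylic acids, which are then shortened in peroxisomes, and by which lipid mediators such as leukotriene B4 are inactivated. The Cyp4a genes are known targets of the nuclear receptor PPARα, which binds DNA as a partner of retinoid x receptor α (RXRα). Cyp4f enzymes are known mainly for eicosanoids and the Cyp4v enzyme for medium-chain fatty acids.

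The genes described here were 10 listed mouse Cyp4 genes: Cyp4a10, Cyp4a12a, Cyp4a14, Cyp4f13, Cyp4f14, Cyp4f15, Cyp4f16, Cyp4f17, Cyp4f18 and Cyp4v3. They were listed by name, but with earlier results of these data known, as were the gene lists used below. Counts within them are therefore not those of sets chosen blind to the data. Each member was read on the probe set with the highest mean that the array annotation gives to that gene alone. Of the 10 genes, 8 had such a probe set among the 12393 genes of the whole table. Cyp4a10 was read only by a probe set that it shares with Cyp4a31, so that value belongs to both genes and is called the Cyp4a10/Cyp4a31 probe set. Cyp4f17 had no probe set in the annotation used and has no value here. Cyp4a12a has a near-identical neighbour, Cyp4a12b, with no probe set of its own here, so the Cyp4a12a value is uncertain as to which copy it reads.

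Liver RNA of C57BL/6 mice was hybridised to 12 Affymetrix mouse arrays in 4 groups of 3. KO_RA were hepatocyte RXRα-deficient mice on a diet with 150 mg/kg retinoic acid (RA) for 7 days. KO were the same mutants on normal diet, WT_RA were wild type mice on the RA diet, and WT were wild type mice on normal diet. The wild type mice were male and 12 weeks old. In the mutants cre recombinase under the albumin promoter removes exon 4 of Rxra, which holds the DNA-binding domain, so hepatocytes still make a shortened protein that keeps the ligand-binding domain, and other liver cells keep the gene. The titles call the arrays biological replicates. All levels are log2 signals after robust multi-array averaging (RMA), differences are in log2 units, and a level of one probe set cannot be set against that of another.

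The arrays were even in overall signal, with medians of 6.26 to 6.35 and rank correlations within groups of 0.978 to 0.994. All 9 measured hepatocyte markers lay above the 99.3rd percentile of mean signal. WT_RA 3 and KO 1 stood apart, since their Actb 3′ control was only 9.40 and 9.12 while that of the remaining 10 arrays was 12.1 to 12.9. Apob, a hepatocyte marker, was also lowest on them, at 11.30 and 11.23 against 12.87 to 13.28 on the rest, and results that rest on these 2 arrays are also given without them. Rxra itself was 10.91, 10.76 and 10.85 in KO_RA livers, 10.11, 10.66 and 10.84 in KO livers, 10.49, 10.20 and 9.997 in WT_RA livers, and 10.82, 10.51 and 10.37 in WT livers. On this probe set KO_RA livers were 0.61 above WT_RA livers without overlap, as for 25.6% of all genes (limma adjusted p = 0.0911). A second Rxra probe set was at 9.14, 9.17 and 9.18 in KO_RA livers and at 8.45, 8.99 and 9.09 in KO livers. It was at 8.65, 8.82 and 8.28 in WT_RA livers and at 8.91, 8.92 and 8.75 in WT livers. Where in the transcript these probe sets lie was not stated in the sources at hand, and Rxra levels therefore do not check the deletion.

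Among the Cyp4a genes, which lie together on chromosome 4, RA went with opposite directions. Cyp4a12a, a male-enriched arachidonic acid hydroxylase of mouse (chr4:115299046-115332815 in the RefSeq annotation of GRCm38.p6), was lower in RA-fed livers of both genotypes. Cyp4a14, a fatty acid hydroxylase and PPARα target (chr4:115486200-115496158), and the Cyp4a10/Cyp4a31 probe set (Cyp4a10, chr4:115518287-115533649) were far higher in some RA-fed livers and not in others.

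Cyp4a12a was at 11.68, 11.34 and 11.90 in KO_RA livers and at 12.21, 12.41 and 12.38 in KO livers. It was at 11.52, 11.54 and 11.15 in WT_RA livers and at 12.05, 12.02 and 12.27 in WT livers. Every RA-fed liver was below every liver on normal diet, with the closest pair being KO_RA 3 and WT 2. Between WT_RA and WT livers alone, 7.86% of all genes were lower without overlap. The share of all genes that separate by diet over both genotypes together was not counted. In wild type mice the difference was -0.71 ± 0.15 (SE, 0.613-fold, n = 3 each, limma, Benjamini-Hochberg adjusted p = 0.042), and Cyp4a12a was the only member to pass the test there, 1 of 8, in a comparison in which 1.27% of all 12393 genes passed (0.403% lower). At an unadjusted p under 0.05 there were 5 of 8 members, Cyp4a12a, Cyp4a14, Cyp4f14, Cyp4f16 and Cyp4v3, against 11.7% of all genes. The call of Cyp4a12a was lost with the replicate number as a block (adjusted p = 0.0808), in a fit on those 2 groups (0.0602) and over all probe sets (0.0567). In these whole-liver RNA values, fewer cells of a type and less RNA per cell cannot be told apart.

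In KO mice the same gene differed by -0.69 ± 0.15 (SE, 0.619-fold, n = 3 each, limma adjusted p = 0.0628), which missed the threshold although the groups did not overlap, as for 20.9% of all genes. No member of the 8 passed in that comparison, where 0.5% of all genes did and where 3 members and 14% of all genes had an unadjusted p under 0.05. The RA difference in KO mice minus that in WT mice was 0.014 for Cyp4a12a, with a 95% confidence interval of -0.44 to 0.47. Averaged over both genotypes, a contrast chosen after these values were seen and built from the same arrays, the RA difference of Cyp4a12a was -0.70 ± 0.10 (SE, limma adjusted p = 0.006), and this call was kept with each of the 12 arrays left out in turn. The call in wild type mice alone was less steady: it was lost in 9 of the 12 fits that left out an array, namely those without KO_RA 1, KO 2, KO 3 or any WT_RA or WT liver. The highest adjusted p was 0.157, and the differences ran between -0.77 and -0.58. In KO mice, by contrast, the call was gained without WT_RA 3 (adjusted p = 0.0494), and without WT_RA 3 and KO 1 together the limma adjusted p was 0.04998 in KO mice (-0.75, just past the threshold) and 0.133 in wild type mice (-0.58).

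**Figure D1:**
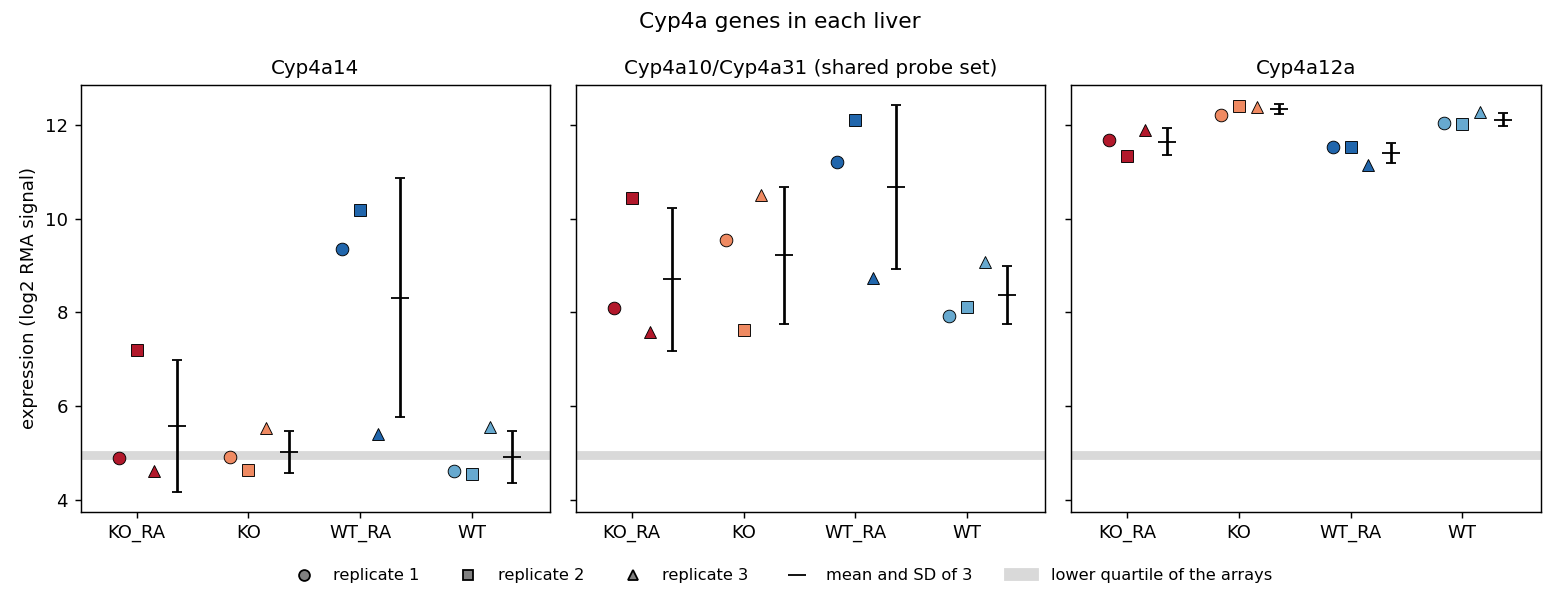
Levels of the 3 Cyp4a probe sets in each liver (log2 RMA signal, 1 point an array, marker by replicate number, bar for the mean and SD of 3), with the range of the arrays' lower quartile of signal in grey. Cyp4a14 is at 9.35 and 10.19 on WT_RA 1 and 2 but at 5.42 on WT_RA 3, while Cyp4a12a is lower in every RA-fed liver than in any liver on normal diet.

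Cyp4a14 was at 4.90, 7.20 and 4.62 in KO_RA livers and at 4.91, 4.63 and 5.53 in KO livers. In WT_RA livers it was at 9.35, 10.19 and 5.42, against 4.62, 4.56 and 5.56 in WT livers. Thus WT_RA 1 and WT_RA 2 were 4.43 and 5.27 log2 units above the WT mean, whereas WT_RA 3 was only 0.50 above it and lay inside the range of WT livers. Among the KO_RA livers, KO_RA 2 alone stood out, 2.17 above the KO mean. Most livers on normal diet were near or below the arrays' lower quartile of signal, which was 4.87 to 5.02, so their Cyp4a14 levels are close to the low end of what the arrays resolve.

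On average Cyp4a14 was 3.40 ± 1.0 higher in WT_RA than in WT livers (SE, n = 3 each), with an interval of 1.22 to 5.59 and a limma adjusted p of 0.153. WT_RA 3 is one of the arrays that stood apart, and without it the difference was 4.85 with an adjusted p of 0.00729. Without both WT_RA 3 and KO 1 it was 4.85 with an adjusted p of 0.00929. In KO mice the RA difference was 0.55 (interval -1.64 to 2.74), and it turned to -0.26 without KO_RA 2. The difference between the RA effects, KO minus WT, was -2.85 ± 1.42 (SE, interval -5.94 to 0.24, limma adjusted p = 0.462), so a genotype dependence of the Cyp4a14 response was not shown at this number of arrays. Without WT_RA 3 it was -4.30 (adjusted p = 0.16). In the limma test of this difference between RA effects, which 0.00807% of all genes passed, no member passed and none had an unadjusted p under 0.05, against 11.7% of all genes. The 2 other Cyp4 genes measured, Cyp4a31 on its own probe set and Cyp4b1, did have an unadjusted p under 0.05. They were at -0.82 and -0.67 and did not pass (limma adjusted p over all probe sets 0.273 and 0.288). Averaged over both genotypes the RA difference of Cyp4a14 was 1.98 (adjusted p = 0.214), and 2.70 without WT_RA 3 (adjusted p = 0.0114).

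The Cyp4a10/Cyp4a31 probe set stood at 8.09, 10.43 and 7.58 in KO_RA livers and at 9.54, 7.62 and 10.50 in KO livers. Its levels in WT_RA livers were 11.21, 12.10 and 8.73, against 7.92, 8.12 and 9.07 in WT livers. The high livers were again WT_RA 1, WT_RA 2 and KO_RA 2, but here KO 1 and KO 3 on normal diet were also 1.17 and 2.13 above the WT mean, while for Cyp4a14 these livers were at -0.0029 and 0.61 relative to it. The groups overlapped in all 4 comparisons. With adjustment over all 22626 probe sets, the limma difference was 2.31 ± 0.96 between WT_RA and WT livers (SE, 4.96-fold; adjusted p = 0.408), -0.52 between KO_RA and KO livers (adjusted p = 0.844) and 0.85 between KO and WT livers (adjusted p = 0.688). With array weights the first of these passed, at 2.89 (adjusted p = 0.0468).

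Over the 12 arrays the genes whose levels followed Cyp4a14 most closely were Cdkn1a, an inhibitor of the cell cycle, with Pearson r = 0.93, then Cabp7 and Id1, each at 0.88. For the Cyp4a10/Cyp4a31 probe set they were Cabp7 (0.83), Abcb1a (0.82) and Id1 (0.79). These correlations are descriptions with no test, the highest among 12393 genes, and the 12 points share groups and arrays. By rank they were lower for Cyp4a14, with Spearman rho of 0.73 for Cdkn1a, 0.60 for Cabp7 and 0.65 for Id1. Cabp7 ranged only from 3.57 to 3.88 over the 12 arrays, below the arrays' lower quartile of signal. Cdkn1a was at 7.01, 8.26 and 7.14 in KO_RA livers and at 6.79, 7.01 and 6.87 in KO livers. It was at 8.52, 9.43 and 7.59 in WT_RA livers and at 7.29, 6.61 and 7.81 in WT livers. Its 3 highest livers, WT_RA 2, WT_RA 1 and KO_RA 2, were also the highest for Cyp4a14.

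Other listed PPARα targets had few RA calls. The 20 measured held fatty acid transport, activation and oxidation genes and also others, such as Pdk4 and Vnn1. Of the 20, 0 passed the limma test in either direction between WT_RA and WT livers. There 2 had an unadjusted p under 0.05, against 11.7% of all genes. The median difference of the 20 was -0.04, beside -0.01 over all genes. Relative to the WT mean of each gene, the median of the list was 0.23 on WT_RA 1, -0.07 on WT_RA 2 and -0.17 on WT_RA 3. Between KO_RA and KO livers 0 of the 20 passed, but 8 had an unadjusted p under 0.05, against 14% of all genes. There were 6 of 20 at that level averaged over both genotypes, against 13.9%. For the difference between the RA effects there were 4 of 20, against 11.7%. Averaged over both genotypes, Pdk4, a kinase that inhibits pyruvate dehydrogenase, passed at 1.13 (limma adjusted p = 0.0099, kept with each of the 12 arrays left out) and Fabp1, a fatty acid binding protein, at -1.13 (adjusted p = 0.0433, lost in 9 of 12 fits without an array: any WT, WT_RA or KO liver), where 2.34% of all genes passed. The 17 measured genes of peroxisomal dicarboxylate oxidation, the next step after omega-oxidation, had 0 calls between WT_RA and WT livers. There 3 had an unadjusted p under 0.05, and the median was 0.10. Averaged over both genotypes, 1 of the 17 passed, Nudt7, at -1.16 (limma adjusted p = 0.0325, lost in 10 of 12 fits without an array). In that contrast 5 of the 17 had an unadjusted p under 0.05, against 13.9% of all genes.

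**Figure D2:**
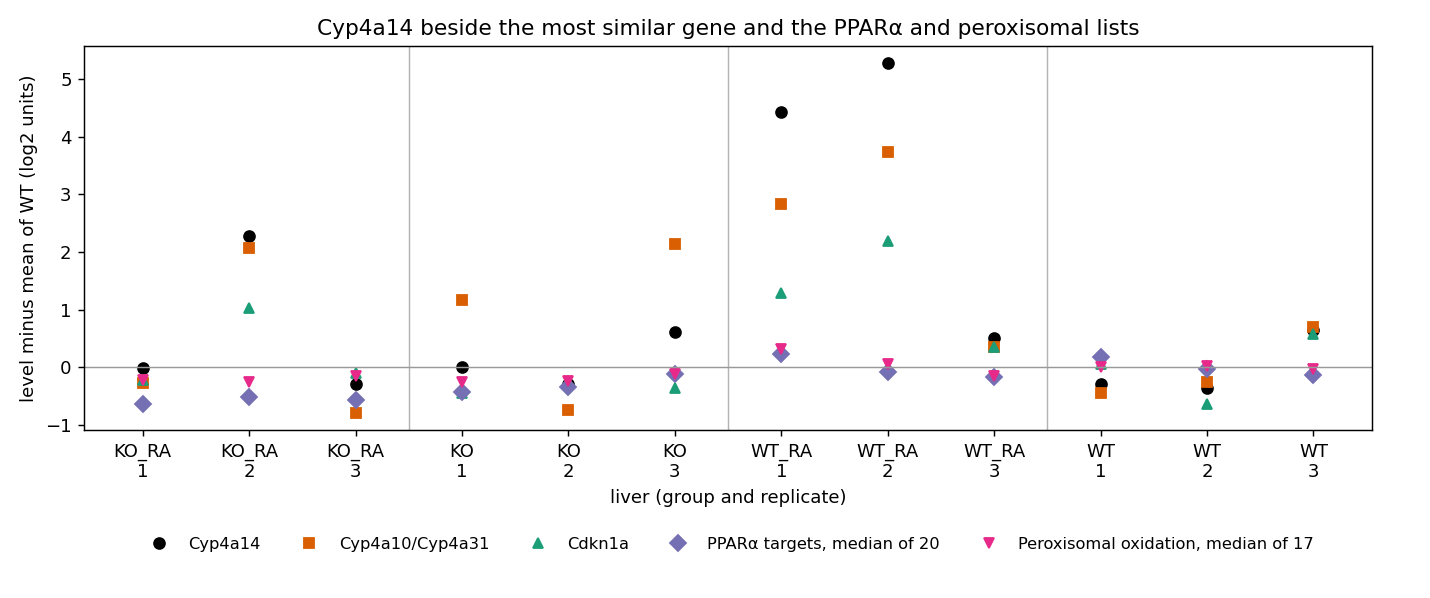
Level of Cyp4a14, the Cyp4a10/Cyp4a31 probe set and Cdkn1a in each liver minus the gene's mean in WT livers (log2 units), with the median of 20 PPARα targets and of 17 peroxisomal genes computed in the same way. Cyp4a14 reaches 4.43 and 5.27 on WT_RA 1 and 2 and 2.28 on KO_RA 2, while the PPARα list stays between -0.63 and 0.23 in every liver.

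The Cyp4f genes lie in a cluster on chromosome 17 except Cyp4f18 (chr8:71988482-72009668), and Cyp4v3 lies at chr8:45305801-45333163. Of these, Cyp4f14, which hydroxylates leukotriene B4 in mouse (chr17:32903357-32917376), and Cyp4v3 were lower in RA-fed livers of both genotypes without overlap. Cyp4v3 is the mouse counterpart of human CYP4V2, which is mutated in a crystalline eye dystrophy. Of all genes, 7.86% were lower without overlap between WT_RA and WT livers and 12.3% between KO_RA and KO livers. Neither Cyp4f14 nor Cyp4v3 passed the test in either comparison. Cyp4f13 (chr17:32924688-32947415), Cyp4f15 (chr17:32685631-32703352), Cyp4f16 (chr17:32536545-32551798) and Cyp4f18 differed by at most 0.31 in any of the 4 comparisons. Upstream sequence was at hand in RefSeq (GRCm38.p6) for 6 of the 10 members, as the 250 bases before the most upstream listed start, of which 20 lie inside the RefSeq gene span in Cyp4f14 and 0 in Cyp4v3. The whole windows of Cyp4f14 (chr17:32917357-32917606, minus strand) and Cyp4v3 (chr8:45333164-45333413, minus strand) are shown because these are the members outside Cyp4a whose RA-fed livers lay lower in both genotypes, with the CCAAT box, which reads ATTGG on the strand printed, in capitals.
Cyp4f14: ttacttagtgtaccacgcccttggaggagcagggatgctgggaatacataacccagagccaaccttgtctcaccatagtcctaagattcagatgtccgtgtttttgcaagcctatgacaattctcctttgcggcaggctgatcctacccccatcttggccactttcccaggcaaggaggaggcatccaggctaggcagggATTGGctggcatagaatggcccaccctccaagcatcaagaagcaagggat
Cyp4v3: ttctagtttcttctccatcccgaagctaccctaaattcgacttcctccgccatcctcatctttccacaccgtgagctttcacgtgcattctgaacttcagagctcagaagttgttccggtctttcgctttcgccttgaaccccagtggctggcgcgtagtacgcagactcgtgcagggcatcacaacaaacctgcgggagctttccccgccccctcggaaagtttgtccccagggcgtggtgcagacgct

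The CCAAT box was noticed after these windows were read. Searched on both strands, it was in the windows of all 5 Cyp4f genes with one and not in that of Cyp4v3, against 34.5% of the 27025 windows in the table. The nuclear receptor core motif AGGTCA, also searched on both strands, was in 0 of the 6 windows, against 13.8% of all. Neither count says whether a factor binds there. The stretches around the box are shown to compare the family, with the box in capitals. They lie on GRCm38.p6 at chr17:32947415-32947473 (minus strand) for Cyp4f13, chr17:32917384-32917442 (minus) for Cyp4f14, chr17:32685545-32685603 (plus) for Cyp4f15, chr17:32536498-32536556 (plus) for Cyp4f16 and chr8:72009652-72009710 (minus) for Cyp4f18, and up to 17 of their bases lie inside the gene span. Cyp4f18 holds another box 113 bases before its start.
Cyp4f13: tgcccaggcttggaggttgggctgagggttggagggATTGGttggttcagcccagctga
Cyp4f14: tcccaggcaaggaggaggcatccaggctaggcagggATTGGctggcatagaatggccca
Cyp4f15: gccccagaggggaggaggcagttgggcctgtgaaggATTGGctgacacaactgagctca
Cyp4f16: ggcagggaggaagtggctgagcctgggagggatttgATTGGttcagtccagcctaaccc
Cyp4f18: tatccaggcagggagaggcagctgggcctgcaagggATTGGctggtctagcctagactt

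The box began 76, 50, 78, 23 and 48 bases before the start in Cyp4f13, Cyp4f14, Cyp4f15, Cyp4f16 and Cyp4f18. This start is the end of each window, and in the same order 54, 20, 28, 12 and 42 window bases lie inside the RefSeq gene span. The boxes are therefore nearer to the gene span than these distances. Lined up at the exact box without gaps, over 59 bases, Cyp4f18 was identical to each of Cyp4f13, Cyp4f14 and Cyp4f15 at 61.0% of positions. In the same way Cyp4f16 was identical to the other 4 at 33.9 to 42.4%. No other alignment was tried, so a low share need not mean unlike sequence. Whether the Cyp4f16 box is the counterpart of the others was not tested. The box was thus present in Cyp4f genes whatever their RA values, which follow.

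Cyp4f14 was at 11.05, 10.53 and 11.20 in KO_RA livers and at 11.23, 11.26 and 11.46 in KO livers. In WT_RA livers it was at 10.71, 10.30 and 10.54, against 11.19, 11.02 and 11.07 in WT livers. RA-fed livers were below those on normal diet within each genotype without overlap, as for 7.86% of all genes in wild type and 12.3% in KO mice. Among the KO_RA livers KO_RA 2 was the lowest by a wide margin. The difference was -0.58 ± 0.16 in wild type mice (SE, 0.671-fold, limma adjusted p = 0.122) and -0.39 ± 0.16 in KO mice (0.766-fold; adjusted p = 0.313), neither past the threshold. The difference between these 2 RA effects was 0.19, with an interval of -0.30 to 0.68.

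Cyp4v3 was at 11.55, 11.42 and 11.88 in KO_RA livers and at 12.28, 12.07 and 12.02 in KO livers. In WT_RA livers it was at 11.75, 11.46 and 11.52, against 12.27, 11.91 and 12.21 in WT livers. All 6 RA-fed livers were again below all 6 livers on normal diet, the closest being KO_RA 3 and WT 2. Within a genotype, 7.86% of all genes in wild type and 12.3% in KO mice were lower without overlap. The share over both genotypes together was not counted. The limma difference was -0.55 ± 0.14 in wild type mice (SE, 0.682-fold; adjusted p = 0.0892) and -0.51 ± 0.14 in KO mice (0.703-fold; adjusted p = 0.129), and the difference between these effects was 0.043 (interval -0.39 to 0.47). A second Cyp4v3 probe set differed by -0.75 and -0.59 in the same comparisons, with adjusted p over all probe sets of 0.122 and 0.228.

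Averaged over both genotypes, RA lowered 3 of the 8 members in a limma test that 2.34% of all genes passed (0.871% lower). Beside Cyp4a12a these were Cyp4v3 at -0.53 ± 0.10 (SE, adjusted p = 0.0156) and Cyp4f14 at -0.48 ± 0.11 (adjusted p = 0.0476). The Cyp4v3 call was lost without WT_RA 2, at an adjusted p of 0.0509. The Cyp4f14 call was kept in only 2 of the 12 fits that left out an array, those lacking WT_RA 1 or KO_RA 3, and its adjusted p reached 0.128 in the rest. Without KO_RA 2, the Cyp4f14 difference in wild type mice, still -0.58, passed instead (adjusted p = 0.0413). Without WT_RA 3 and KO 1 together, both calls were lost (adjusted p = 0.0613 for Cyp4v3 and 0.0938 for Cyp4f14), and over all probe sets that of Cyp4f14 was lost (0.067).

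**Figure D3:**
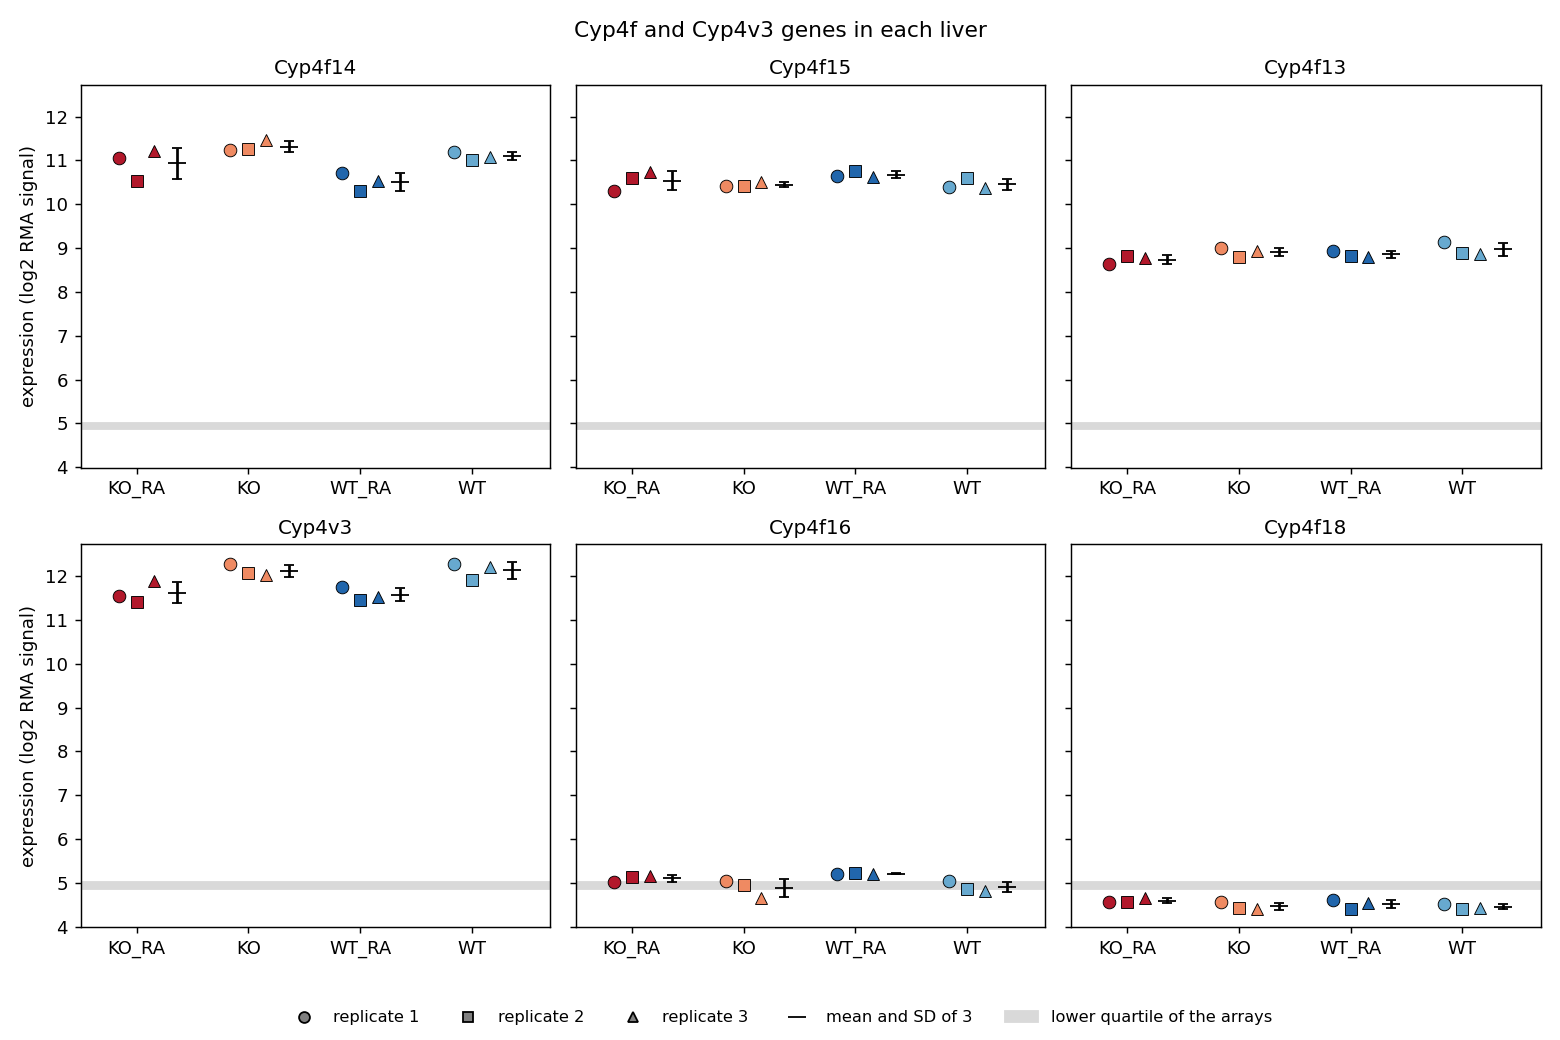
Levels of 5 Cyp4f genes and Cyp4v3 in each liver (log2 RMA signal, 1 point an array, bar for the mean and SD of 3), with the arrays' lower quartile of signal in grey. Cyp4f14 and Cyp4v3 are lower in RA-fed livers of each genotype, Cyp4f15 and Cyp4f13 stay within a narrow range, and Cyp4f16 and Cyp4f18 lie near or below the grey band.

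Cyp4f15, an eicosanoid hydroxylase, was at 10.29, 10.59 and 10.73 in KO_RA livers and at 10.42, 10.42 and 10.51 in KO livers. It was at 10.64, 10.76 and 10.62 in WT_RA livers and at 10.40, 10.59 and 10.37 in WT livers. The WT_RA livers were all above the WT livers, by 0.22 on average (limma adjusted p = 0.495), a separation of groups of 3 that 16.6% of all genes showed in that comparison. Cyp4f13 ranged from 8.63 to 9.15 over the 12 livers and passed no test, its largest difference being -0.17 between KO_RA and KO livers (interval -0.39 to 0.04).

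Cyp4f16 and Cyp4f18 were read at the 26.4th and 17.3rd percentile of signal, near or below the arrays' lower quartile. Cyp4f16 was at 5.20, 5.22 and 5.20 in WT_RA livers, against 5.03, 4.86 and 4.81 in WT livers. The groups did not overlap, as for 16.6% of all genes, and the difference of 0.31 ± 0.11 did not pass (SE, limma adjusted p = 0.241). In KO_RA livers Cyp4f16 was at 5.01, 5.14 and 5.16, against 5.05, 4.95 and 4.65 in KO livers. That difference was 0.22 (adjusted p = 0.380). A second Cyp4f16 probe set differed by 0.20 and 0.13 in the same comparisons, with adjusted p over all probe sets of 0.469 and 0.549. Cyp4f18, which hydroxylates leukotriene B4 in mouse leukocytes, ranged from 4.41 to 4.66 over all 12 livers. Its largest difference was 0.13 between KO_RA and KO livers (interval -0.05 to 0.31). Over the 12 arrays the genes most like it were Pcdhb14 (Pearson r = 0.87), Ehf (0.85) and Git1 (0.85), a description with no test.

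Macrophages and neutrophils are cells that could carry Cyp4f18 RNA. The 14 measured Kupffer cell and macrophage markers had a median, relative to WT livers, of 0.60 to 0.69 in KO_RA livers, 0.31 to 2.21 in KO livers, 0.65 to 1.45 in WT_RA livers and -0.14 to 0.16 in WT livers. Of these, Cd163, a macrophage scavenger receptor, and Cd14 passed the limma test between WT_RA and WT livers (1.49 and 1.12 higher, where 0.871% of all genes were called higher; the Cd14 call was lost in 9 of 12 fits without an array, with adjusted p up to 0.167). At an unadjusted p under 0.05 there were 8 of the 14 between WT_RA and WT livers, against 11.7% of all genes, and 13 between KO and WT livers, against 16.3%. The 11 neutrophil markers had 0 calls in the 4 comparisons, with 3 and 1 at an unadjusted p under 0.05 between WT_RA and WT and between KO and WT livers. Their medians lay at 0.06 to 0.19 in KO_RA livers, 0.13 to 0.27 in KO livers, -0.08 to 0.26 in WT_RA livers and -0.25 to 0.18 in WT livers. The part of these cells in any Cyp4 level was not tested.

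RXRα deficiency alone moved no Cyp4 gene past the threshold. Between KO and WT livers on normal diet, 0 of 8 members passed the limma test, which 1.32% of all genes passed, and 0 had an unadjusted p under 0.05, against 16.3% of all genes. The intervals of the difference were -0.10 to 0.54 for Cyp4a12a, -0.13 to 0.57 for Cyp4f14, -0.31 to 0.30 for Cyp4v3, -0.25 to 0.24 for Cyp4f15 and -0.27 to 0.16 for Cyp4f13. For Cyp4f16 and Cyp4f18 they were -0.25 to 0.22 and -0.17 to 0.19. For Cyp4a14 the interval was far wider, -2.08 to 2.29, so a change of a few-fold in either direction could not have been seen. Cyp4f14 was the only member whose KO and WT livers did not overlap, at 0.22 higher (adjusted p = 0.504), and 20.1% of all genes separated in that way.

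Under RA, between KO_RA and WT_RA livers, 0 of 8 members passed, against 3.95% of all genes, and 2 had an unadjusted p under 0.05, against 17.8%. These were Cyp4a14, at -2.74 ± 1.0 (SE, limma adjusted p = 0.166), and Cyp4f14, at 0.41 ± 0.16 (1.33-fold; adjusted p = 0.194). The KO_RA and WT_RA livers overlapped for both. Without WT_RA 3 the Cyp4a14 difference was -4.19 with an adjusted p of 0.00652, and without WT_RA 3 and KO 1 it was -4.19 with an adjusted p of 0.00913. The Cyp4a10/Cyp4a31 probe set differed by -1.98 (interval -4.07 to 0.12; adjusted p over all probe sets 0.32). Averaged over both diets, again a contrast chosen after the values were seen, RXRα deficiency had 0 of 8 members called against 5.34% of all genes, with 2 at an unadjusted p under 0.05, against 22.1%. Cyp4a14, at -1.32 there (adjusted p = 0.299), reached -2.01 with an adjusted p of 0.034 without WT_RA 3 and KO 1, and -2.04 with an adjusted p of 0.0217 without WT_RA 3 alone. Without KO_RA 2, Cyp4f14 passed at 0.61 between KO_RA and WT_RA livers (adjusted p = 0.0349) and at 0.41 averaged over diets (adjusted p = 0.0211).

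**Figure D4:**
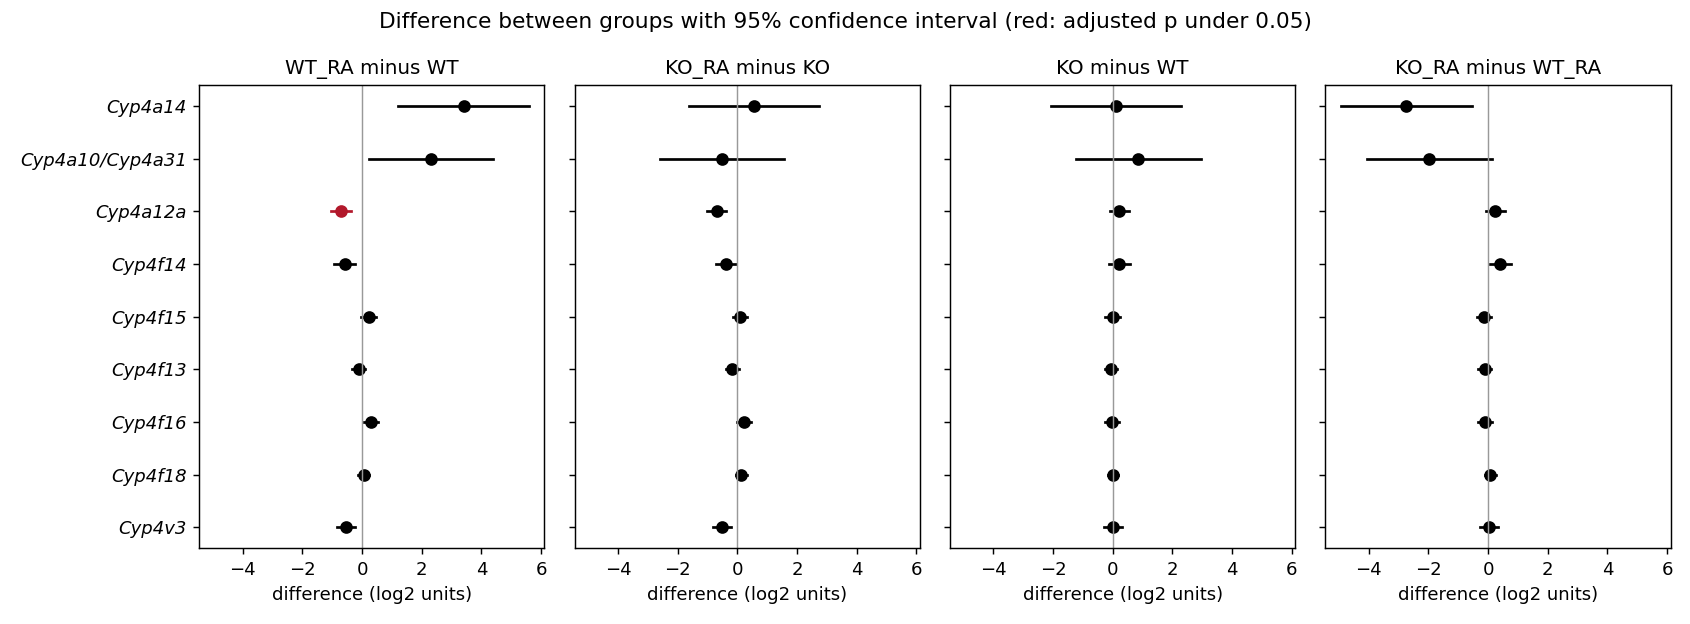
Difference between groups for 9 Cyp4 probe sets (log2 units, point with 95% confidence interval from limma) in the 4 comparisons, in red where the adjusted p is under 0.05. Only Cyp4a12a between WT_RA and WT livers is red, at -0.71, and the intervals of Cyp4a14 and the Cyp4a10/Cyp4a31 probe set are several times wider than the others.

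Among the genes that work with Cyp4 enzymes, 1 fell with RXRα deficiency. Of 9 measured partners of omega-oxidation, which are P450 electron donors and the alcohol and aldehyde dehydrogenases that finish the reaction, Aldh3a2, a fatty aldehyde dehydrogenase, passed the limma test between KO and WT livers, as 1.32% of all genes did, and between KO_RA and WT_RA livers, as 3.95% did. Its difference was -1.51 ± 0.28 between KO and WT livers (SE, adjusted p = 0.0273) and -1.77 ± 0.28 between KO_RA and WT_RA livers (adjusted p = 0.00543). The first call was lost in 4 of 12 fits, without WT 1, WT 2, KO 2 or KO 3, and the second in none. Between WT_RA and WT livers the partner that fell was Cyb5r3, a cytochrome b5 reductase, at -0.56 ± 0.12 (adjusted p = 0.0459, lost in 9 of 12 fits), where 1.27% of all genes passed. The other partners did not pass in these comparisons.

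Of the 17 peroxisomal genes, 3 were lower and 0 higher between KO and WT livers (0.831% of all genes were lower), with a median of -0.15 beside 0.02 over all genes. They were Acaa1b, a thiolase, at -2.56, Decr2, a dienoyl-CoA reductase, at -2.30, and Slc27a2, a very long chain acyl-CoA synthetase, at -0.61 (lost without WT 1, WT 2, KO 2 or KO 3). Between KO_RA and WT_RA livers 4 were lower, led by Acaa1b at -3.28 (limma adjusted p = 0.00045), with a median of -0.32 beside 0.01 over all genes (3.03% of all genes were lower). The 20 PPARα targets had 3 lower calls between KO and WT livers and 8 between KO_RA and WT_RA livers, with medians of -0.27 and -0.62 (0.831% and 3.03% of all genes were lower). The first count fell to 0 without WT 1, WT 2, KO 2 or KO 3 and to 2 without WT 3 or KO_RA 3, and the second to 5 without WT_RA 3 and to 4 without KO_RA 1. Vnn1, a pantetheinase, was at -1.5 and -2.72 in these comparisons, and Slc25a20, the mitochondrial carnitine carrier, at -0.64 and -0.90. The first of these calls was lost without WT 1, WT 2, KO 2 or KO 3 for both genes, and for Slc25a20 also without WT 3 or KO_RA 3. None of the PPARα targets was called higher in these comparisons. In the same comparisons Cyp4a14 differed by 0.11 and -2.74 and did not pass.

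Arachidonic acid is also oxidised by epoxygenases of the Cyp2c and Cyp2j families. Of 11 measured, 4 were lower between KO and WT livers and 6 between KO_RA and WT_RA livers, with 0 higher (0.831% and 3.03% of all genes were lower). The first count fell to 2 without WT 1, WT 2 or WT 3. The second was 3 without WT_RA 1, WT_RA 3 or KO_RA 2, 2 without KO_RA 1, and 4 without WT_RA 2, KO_RA 3, or WT_RA 3 and KO 1 together. Cyp2c29, the first of them by adjusted p, differed by -2.09 ± 0.20 and -2.75 ± 0.20 (SE, limma adjusted p = 0.000855 and 5.41e-05). Between WT_RA and WT livers and between KO_RA and KO livers none of the 11 passed. At an unadjusted p under 0.05 there were 2 and 6 of them, against 11.7% and 14% of all genes. For comparison, the Cyp4a12a differences between KO and WT and between KO_RA and WT_RA livers were 0.22 and 0.24, in the other direction and not past the threshold.

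The genes closest in pattern to Cyp4f14 included some known for higher expression in male liver. Over the 12 arrays Cyp4f14 was most like Slco1a1, a male-enriched organic anion transporter (Pearson r = 0.97), then Hsd3b5, a male-specific steroid dehydrogenase (0.93), and Slc22a30 (0.93). Cyp4a12a was most like Cela1 (0.93), Slc22a30 (0.91) and Hsd17b6, a hydroxysteroid dehydrogenase (0.91). Slco1a1 was at 11.04, 9.96 and 11.28 in KO_RA livers and at 11.28, 11.60 and 11.60 in KO livers, and it was at 10.73, 10.01 and 10.07 in WT_RA livers and at 11.49, 11.07 and 11.11 in WT livers. KO_RA 2 and WT_RA 2 were the lowest of their groups for both Slco1a1 and Cyp4f14.

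**Figure D5:**
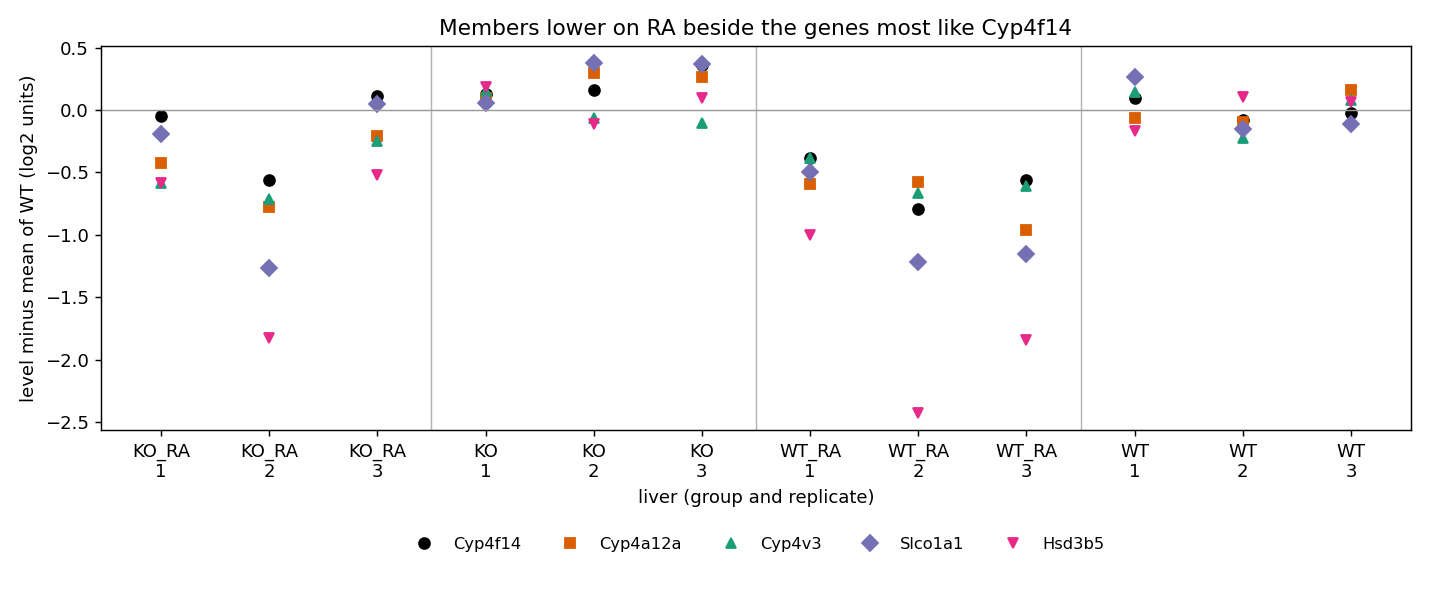
Level of Cyp4f14, Cyp4a12a, Cyp4v3, Slco1a1 and Hsd3b5 in each liver minus the gene's mean in WT livers (log2 units). All 5 genes are below 0 on the 3 WT_RA livers and on KO_RA 2, and lie nearer to 0 in KO livers.

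Slco1a1 and Hsd3b5 were themselves in a list of 11 male-biased liver genes outside Cyp4. Of all genes, 0.403% were lower between WT_RA and WT livers and 0.226% between KO_RA and KO livers. The list had 2 lower calls and 0 higher in each of these RA comparisons. Between WT_RA and WT livers these were Elovl3, a fatty acid elongase, at -4.05 ± 0.33 (SE, limma adjusted p = 0.000219), and Hsd3b5 at -1.75 ± 0.36 (adjusted p = 0.0357, lost in 6 of 12 fits without an array and, at -1.71 with adjusted p = 0.12, without WT_RA 3 and KO 1). Between KO_RA and KO livers they were Elovl3 at -2.39 (adjusted p = 0.0156, lost without KO 3 or KO_RA 2) and Gstp1, a glutathione transferase, at -0.90 (adjusted p = 0.0252, lost in 5 of 12 fits), and neither passed without KO 3 or KO_RA 2. The list's median was -0.50 and -0.48, beside -0.01 and -0.03 over all genes. Of 8 female-biased genes, 1 passed between WT_RA and WT livers, Prom1, at 1.35 higher (0.871% of all genes were higher), and 0 between KO_RA and KO livers.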

How the data were processed

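The deposited values were log2 signals per probe set, made by the authors with RMA in Partek 6.11 per the labels, while the methods name MAS5 and a detection filter, so detection calls were not used here. The table held 22690 probe sets, 64 of them controls. Gene names came from the platform annotation: 20380 probe sets named 1 gene, 691 several and 1555 none. One probe set a gene, that with the highest mean, gave 12393 genes. Differences were fitted with limma 3.58.1 in R 4.3.3 (1 coefficient per group, 12 arrays, empirical Bayes moderation), two-sided, with Benjamini-Hochberg adjustment over all genes, or over all 22626 non-control probe sets where stated, and a threshold of 0.05. The script was tested on simulated data. Only 3 arrays a group limit the precision. Members and the 16 gene lists, which held 156 measured genes, were chosen with earlier results of these data known. Named were all members, up to 4 called genes of each list in a comparison, and the 3 genes most like Cyp4a10, Cyp4a12a, Cyp4a14, Cyp4f14 and Cyp4f18. Also named were the neutrophil markers with an unadjusted p under 0.05 between WT_RA and WT livers. Sequences were RefSeq promoter windows. Alternatives covered the replicate block, a further quantile normalization, a filter on dim probe sets, the mean of probe sets, array weights, moderation with trend, fits on 2 groups, each array left out, WT_RA 3 and KO 1 left out together and, added after seeing the data, all probe sets as the table and the contrasts averaged over genotypes or diets.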

Additional observations from a re-analysis of the deposited data

How the results depend on the processing

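The number of the 8 members called between WT_RA and WT livers was 1 as reported, 0 with the replicate number as a block (Cyp4a12a adjusted p = 0.0808), 0 in a fit on those 2 groups (0.0602), 0 with all probe sets as the table (0.0567), 4 with array weights, and 0 to 2 with an array left out. Between KO_RA and KO livers it was 0, but 1 with array weights or without WT_RA 3 and KO 1 (Cyp4a12a in both), and 0 to 1 with an array left out. Between KO_RA and WT_RA livers it was 0, but 2 with array weights (Cyp4a14 and Cyp4f14), 1 without those arrays, and 0 to 1 with an array left out. For RA averaged over genotypes it was 3, but 5 with array weights, 2 with all probe sets (Cyp4f14 lost, adjusted p = 0.067), 2 without those arrays (Cyp4f14 and Cyp4v3 lost, Cyp4a14 gained at 0.0208) and 1 to 3 with an array left out. For RXRα deficiency averaged over diets it was 0, but 2 with array weights, 1 without those arrays, and 0 to 1 with an array left out. Between KO and WT livers, and for the difference between the RA effects, it stayed at 0 in every fit run. With array weights Cyp4a14 reached 4.25 between WT_RA and WT livers (adjusted p = 0.00506). Counts over all genes moved too. Array weights gave 1070 genes against 158 between WT_RA and WT livers, 303 against 62 between KO_RA and KO livers, 1734 against 163 between KO and WT livers, 1064 against 490 between KO_RA and WT_RA livers, 247 against 1 for the difference between RA effects, and 1010 against 290 and 2370 against 662 averaged over genotypes and over diets. Fits on 2 groups gave 103, 21 and 70 in the first 3 of these comparisons, and leaving out WT_RA 3 and KO 1 gave 95, 110, 266 and 312 in the first 4. The block gave 98 between KO and WT livers, and a further quantile normalization 107 between KO_RA and KO livers. For the difference between RA effects the other alternatives gave 0 to 12. With an array left out, the counts ran from 47 to 212, 6 to 77, 51 to 217 and 170 to 599 in the first 4 comparisons, 1 to 14 for the difference, and 151 to 288 and 403 to 767 averaged over genotypes and over diets. The cause of these shifts was not tested.

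Of 1261 refitted differences of members, 53 changed sign. A further quantile normalization did so between KO and WT livers for Cyp4f13 (0.0597), Cyp4f15 (0.0887), Cyp4f18 (-0.0590) and Cyp4v3 (0.0552), and averaged over diets for Cyp4f13 (0.0133), Cyp4f15 (0.00616) and Cyp4f18 (-0.0120). The mean of probe sets did so for Cyp4f16 between KO and WT livers (0.0131) and Cyp4v3 averaged over diets (-0.0085). Array weights did so for Cyp4f13 (0.00726) and Cyp4v3 (0.11) between KO and WT livers, Cyp4a14 between KO_RA and KO livers (-0.0415), and the difference between RA effects of Cyp4a12a (-0.0673) and Cyp4v3 (-0.0131). Leaving out WT_RA 3 and KO 1 did so for Cyp4f15 (0.00933) and Cyp4f18 (-0.0391) between KO and WT livers, the difference between RA effects of Cyp4a12a (-0.17) and Cyp4v3 averaged over diets (-0.0368). With an array left out, the ranges that crossed 0 between KO and WT livers were -0.14 to 0.43 for Cyp4a14, -0.11 to 0.0313 for Cyp4f13, -0.0507 to 0.0632 for Cyp4f15, -0.10 to 0.10 for Cyp4f16, -0.0391 to 0.0387 for Cyp4f18 and -0.12 to 0.0649 for Cyp4v3. Between KO_RA and KO livers they were -0.26 to 1.03 for Cyp4a14, -0.00502 to 0.21 for Cyp4f15 and -1.38 to 0.12 for the Cyp4a10/Cyp4a31 probe set. They were -0.10 to 0.14 for Cyp4v3 between KO_RA and WT_RA livers, -0.12 to 0.17 for Cyp4a12a and -0.0899 to 0.15 for Cyp4v3 in the difference between RA effects, and -0.0506 to 0.0656 for Cyp4v3 averaged over diets.

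The replicate numbers did not pair the arrays: of 18 same-numbered pairs, deviations correlated at -0.46 to 0.27, with 5 over 0.1. Array signal near the lower quartile limits what Cyp4f16, Cyp4f18 and, on normal diet, Cyp4a14 can show.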

Other observations

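Other Cyp4 genes of the array were few. Cyp4b1, a hydroxylase of short-chain fatty acids, was at 7.09, 7.22 and 6.96 in KO_RA livers, 7.51, 7.36 and 7.41 in KO livers, 7.26, 7.09 and 7.27 in WT_RA livers, and 6.58, 6.73 and 7.31 in WT livers. KO livers were above all other livers. The difference of 0.56 between KO and WT livers did not pass (limma adjusted p over all probe sets 0.155). In that comparison 18.5% of all probe sets had groups that did not overlap. The probe set of Cyp4a31 alone, low in signal, was at 3.56, 3.91 and 3.63 in KO_RA livers, 3.89, 4.04 and 4.07 in KO livers, 4.25, 4.65 and 3.75 in WT_RA livers, and 3.67, 3.60 and 3.82 in WT livers. Its highest livers were WT_RA 2 and WT_RA 1, as for Cyp4a14 and the shared probe set. A probe set shared by Cyp4f37 and Cyp4f16 was at 4.79, 4.76 and 5.05 in WT_RA livers, against 4.14, 4.34 and 4.58 in WT livers. These groups did not overlap, as for 15.7% of all probe sets in that comparison. The difference of 0.51 did not pass (limma adjusted p over all probe sets 0.157). Between KO_RA and KO livers this probe set differed by -0.063, with overlap (limma adjusted p over all probe sets 0.877).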
